A study of Mus musculus with 36 samples.

Results

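The liver transcriptome was compared between high-fat diet (HFD)-fed Mlkl Adi-KO mice, which lack the necroptosis effector Mlkl in fat cells, and their HFD-fed WT littermates. All liver libraries that the labels place in these groups were used, 5 KO and 5 WT, which is 10 of the 36 libraries of the series, with 1 mouse per library. The other libraries are 8 livers of mice on normal chow diet (NCD) and the visceral white adipose tissue (visWAT) of the same 18 animals. The mice were males bred on a C57BL/6J background, 16 weeks of age when the diets began, and the HFD (D12492) or NCD was given for 16 weeks. Mice of both genotypes carry loxP-flanked Mlkl alleles. KO mice also carry the AdipoCre transgene, which removes the gene in mature adipocytes, and the promoter of that transgene is not named in the sources used here. The feeding state and the time of day at tissue collection are not given in the sources used here. Values are FPKM (fragments mapped per kilobase of gene and per unit of library size), and per-mouse values are given in the order 151, 152, 153, 156 and 157 for KO and 154, 155, 161, 162 and 164 for WT.

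The liver reads the state of adipose tissue through insulin, fatty acids and adipokines. After a meal, insulin activates AKT, which keeps FOXO1 out of the nucleus and turns on SREBP1c and its lipogenic targets, whereas fasting raises glucagon, cAMP and fatty acid supply and turns on gluconeogenic genes and, through PPARA, fatty acid oxidation. Along the lobule, Wnt ligands and R-spondin from central vein endothelium keep beta-catenin active in pericentral hepatocytes, which then express Axin2, Lgr5 and Glul, while periportal hepatocytes express genes of urea synthesis and gluconeogenesis. Stellate cells store vitamin A and, once activated, lay down fibrillar collagen. Genes were therefore followed in lists by these roles, 26 lists in all, and some genes stand in more than one list.

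The libraries held between 20875463 and 25371396 reads on genes. Defining hepatocyte markers were high in every library, with albumin (Alb) at 27092 to 33610.4 FPKM in KO and 25146 to 29459 FPKM in WT livers, and all 10 hepatocyte markers were measured. Hepatic Mlkl itself was 2.29 ± 0.666 in KO and 2.72 ± 0.155 FPKM in WT (SD, n = 5 each) and did not pass the test (log2 fold change -0.20, SE 0.11, limma adjusted p = 0.506), whereas in visWAT of the same HFD-fed mice it was 2.32 to 2.72 FPKM in KO and 4.58 to 6.28 FPKM in WT, so that every label of the 10 mice matched. Of the NCD mice, the one labelled WT with number 182 had 2.29 FPKM of Mlkl in visWAT, inside the range of NCD KO mice (1.96 to 2.49 FPKM) and below the other NCD WT mice (3.91 to 5.11 FPKM). Limma terms for the difference between diets are given with and without this library labelled WT, except that of Gm5540. Other NCD values include it unless stated. Among HFD livers, WT mouse 155 carried transcripts of fat and of epithelium: Adipoq was 2.7 FPKM and Krt19 36.2 FPKM there, against at most 0.0443 and 0.774 FPKM in the other 9 livers. KO mouse 152 stood out for macrophage and endothelial genes, described below with the stroma.

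Of 13215 genes with a mean of at least 0.5 FPKM, 26 (0.197%) differed between genotypes at an adjusted p under 0.05 (limma on log2(FPKM + 1), Benjamini-Hochberg), 17 higher (0.129%) and 9 lower (0.0681%) in KO. On a TPM scale, where each library sums to the same total, the median of all genes moved from 0.00 to -0.05 (log2) and the split was 12 higher and 15 lower. The genes higher in KO with an established symbol included Kng1, Kng2, Eif4a2, Zfp949, Zfp825, Tbx3, Sp5, Axin2, Sertad3, Topors, Bckdhb and Clp1, and the lower ones were Lpin1, Igfbp1, Ip6k2, Taf1a, Spry1 and the mitochondrial serine tRNA mt-Ts2. Most other called genes are predicted or noncoding genes. An unadjusted limma p under 0.05 was met by 6.55% of genes in the direction of higher in KO and by 6.05% in the direction of lower. Groups did not overlap, with every KO mouse above every WT mouse, for 1.38% of genes, and with every KO mouse below for 1.24%. DESeq2 on the reads recovered from FPKM called 1.82% of the genes it adjusted.

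**Figure D1:**
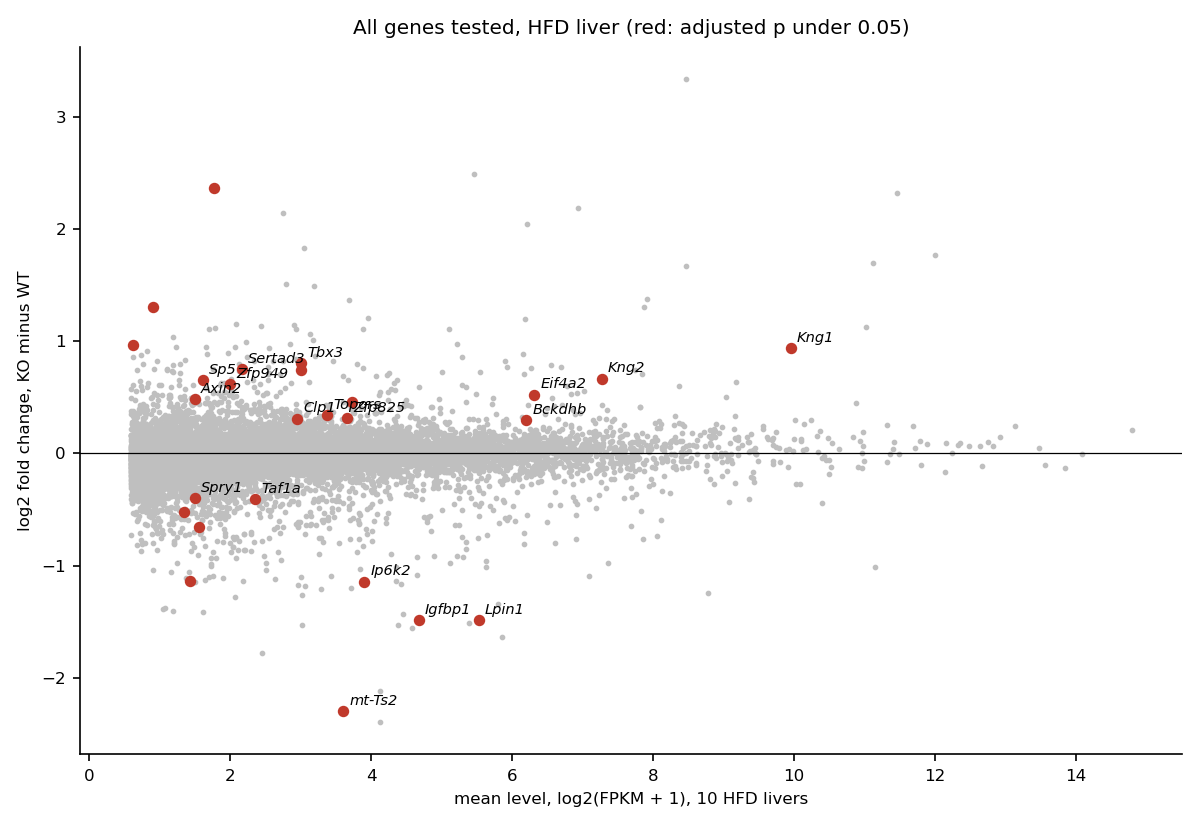
Log2 fold change (KO minus WT, on log2(FPKM + 1)) of every gene tested in HFD liver against its mean level in the 10 livers on a log2 scale, with one point per gene and the 26 genes past the adjusted threshold in red. The called genes lie at low to high levels, and Lpin1, Igfbp1, Ip6k2 and mt-Ts2 are the ones more than 1 log2 unit lower in KO that have an established symbol.

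Lpin1, which encodes the phosphatidate phosphatase lipin 1 that makes diacylglycerol and also coactivates PPARA, fell 2.85-fold in KO liver. The KO mice had 20.9, 16.7, 19, 31.2 and 29.3 FPKM of Lpin1 and the WT mice 92.4, 54.1, 63, 70.8 and 53.7 FPKM. No KO value reached the lowest WT value of 53.7 FPKM (log2 fold change -1.48, SE 0.20, limma adjusted p = 0.0171). The call was lost when WT mouse 161 or 162 or KO mouse 151 or 153 was left out, with adjusted p between 0.0515 and 0.063 (limma). Its paralog Lpin2 was 33.4 ± 9.02 in KO and 56 ± 7.25 FPKM in WT, without overlap but short of the threshold (log2 fold change -0.76, SE 0.17, limma adjusted p = 0.119).

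Igfbp1, a secreted binder of insulin-like growth factors and a FOXO1 target shut off by insulin, fell 2.87-fold. Per mouse, Igfbp1 measured 12.9, 14.6, 15.1, 14.9 and 6.01 FPKM in KO and 50.4, 31, 30.3, 36.5 and 33.9 FPKM in WT. The highest KO value, 15.1 FPKM, lay below the lowest WT value, 30.3 FPKM (log2 fold change -1.49, SE 0.23, limma adjusted p = 0.0401). Among the fits that left out 1 mouse, this call held only without KO mouse 152 or 157. It was lost in each of the other 8, with limma adjusted p between 0.0542 and 0.113.

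Ip6k2 encodes inositol hexakisphosphate kinase 2, one of the kinases that make the pyrophosphate IP7. Ip6k2 was 5.62, 8.52, 9.6, 8.56 and 9.39 FPKM in the KO mice and 23.4, 16.1, 19.4, 22.7 and 16.3 FPKM in the WT mice. It fell 2.35-fold without overlap (log2 fold change -1.14, SE 0.15, limma adjusted p = 0.0161). Among the fits without 1 mouse, the call was lost only without WT mouse 161 (limma adjusted p = 0.0554). It held in 14 of all 16 alternatives. Without a filter on low values, limma called no gene lower in KO. Taf1a, a subunit of the RNA polymerase I factor SL1, was 3.39 ± 0.249 in KO and 4.82 ± 0.352 FPKM in WT (log2 fold change -0.41, SE 0.059, limma adjusted p = 0.0252). Spry1, a feedback inhibitor of receptor tyrosine kinase signalling, was 1.43 ± 0.111 in KO and 2.2 ± 0.237 FPKM in WT (log2 fold change -0.40, SE 0.065, limma adjusted p = 0.0489). Taf1a was lost in 6 and Spry1 in 9 of the 10 fits without 1 mouse, at limma adjusted p of 0.0515 to 0.0853 and 0.0529 to 0.146. The tRNA mt-Ts2 was 3.22 ± 1.91 in KO and 19.1 ± 7.45 FPKM in WT (log2 fold change -2.30, SE 0.35, limma adjusted p = 0.0385), from 1 to 28 reads per library in a poly(A)-selected preparation, and it was lost in 8 of 10 such fits (limma adjusted p 0.0529 to 0.125).

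Kng1 and Kng2, the kininogen genes whose product releases bradykinin, rose with the translation factor gene Eif4a2, and the 3 genes lie 64.5, 117 and 32.4 kb from Adipoq on chromosome 16, in that order. The KO mice had 1286, 1182, 1159.9, 1534 and 1366 FPKM of Kng1 and the WT mice 679, 607, 746, 685 and 675 FPKM. The groups did not overlap (log2 fold change 0.94, SE 0.086, limma adjusted p = 0.00193). Kng2 was 189 ± 18.7 in KO and 118 ± 10.5 FPKM in WT (log2 fold change 0.67, SE 0.080, limma adjusted p = 0.0121). Eif4a2 was 93 ± 6.9 in KO and 64.3 ± 3.9 FPKM in WT (log2 fold change 0.52, SE 0.061, limma adjusted p = 0.0121). The calls of these 3 genes held in all 10 fits that left out 1 mouse. Since every KO mouse and no WT mouse carries the Cre transgene, the loss of Mlkl and the presence of the transgene cannot be told apart here.

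Zfp949, a zinc finger gene on chromosome 9, rose from 2.15 to 3.82 FPKM (log2 fold change 0.62, SE 0.054, limma adjusted p = 0.00189), and 5 of the 26 called genes, the predicted Gm37614 and C920006O11Rik among them with Bckdhb and Ip6k2, lie on that chromosome, which holds 5.3% of the genes tested. Chromosomes 11 and 16 hold 4 called genes each and 8.16% and 3.23% of the genes tested. Gm37614 starts 256 kb beyond the end of Zfp949, and it had no read in any of the 5 WT livers and 2.04 to 10.4 FPKM in KO livers. Gm37614 was named after its values were seen.

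Sertad3, a transcriptional coregulator, was 4.65 ± 0.974 in KO and 2.32 ± 0.181 FPKM in WT (log2 fold change 0.75, SE 0.11, limma adjusted p = 0.0286). Topors, a SUMO and ubiquitin ligase, was 10.6 ± 0.552 in KO and 8.15 ± 0.371 FPKM in WT (log2 fold change 0.34, SE 0.048, limma adjusted p = 0.0235). Sertad3 kept its call in 2 and Topors in 4 of the 10 fits without 1 mouse (limma adjusted p up to 0.101 and 0.0842). Clp1, an RNA kinase of tRNA splicing, was 7.56 ± 0.408 in KO and 5.9 ± 0.327 FPKM in WT (log2 fold change 0.31, SE 0.050, limma adjusted p = 0.0453). The zinc finger gene Zfp825 was 13 ± 0.86 in KO and 10.3 ± 0.402 FPKM in WT (log2 fold change 0.32, SE 0.051, limma adjusted p = 0.0454). Both lost the call in 9 of the 10 fits without 1 mouse, at limma adjusted p up to 0.146.

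**Figure D2:**
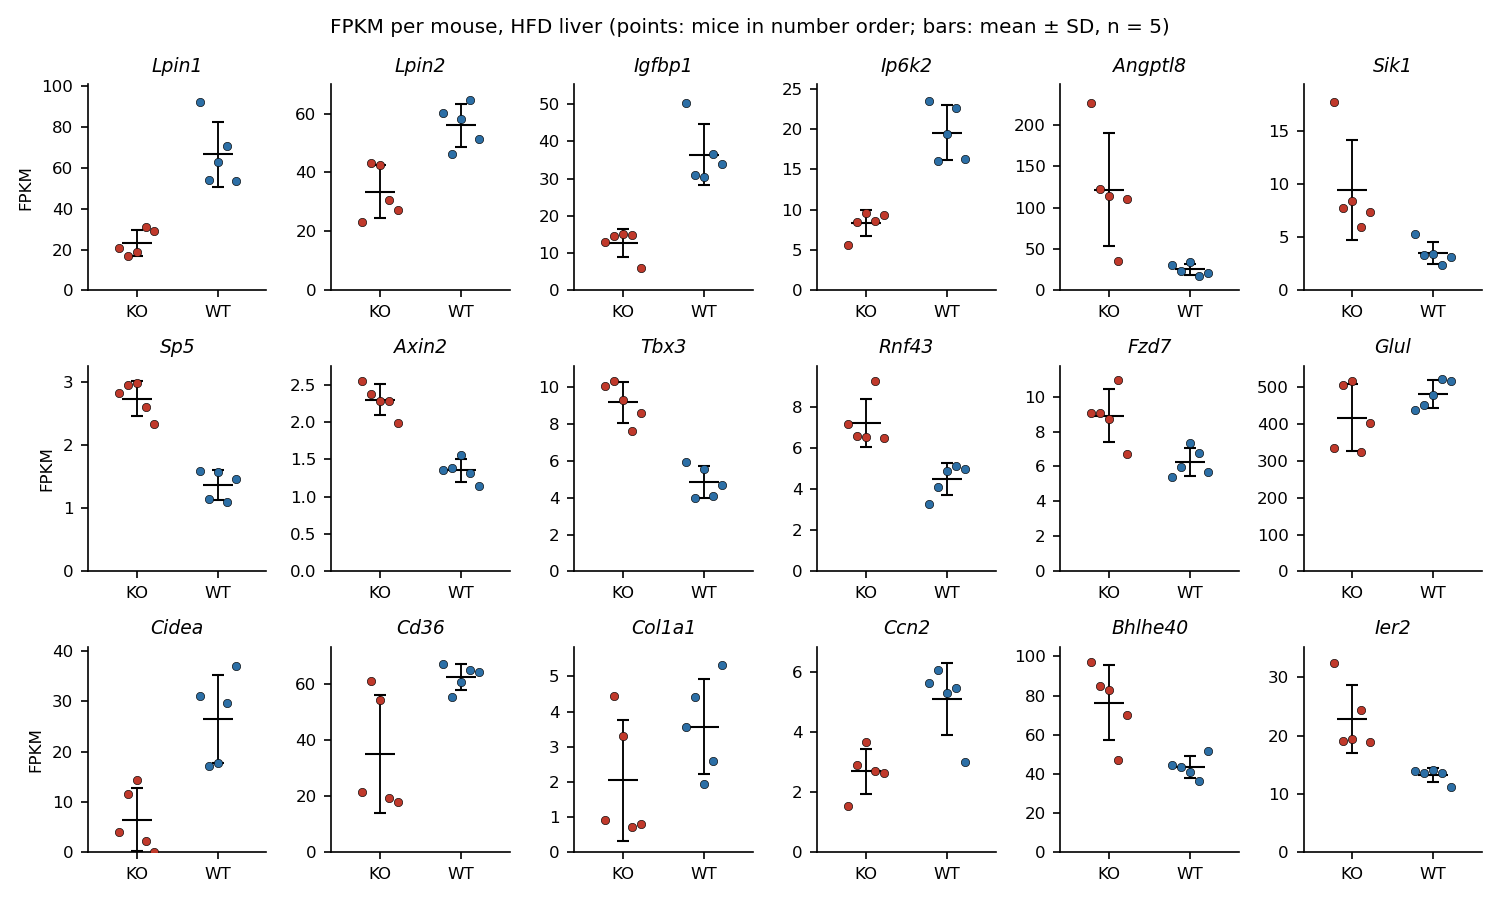
FPKM of 18 genes in each HFD liver (linear axes from 0), one point per mouse in number order within KO and WT, with black bars for the mean ± SD of 5 mice. Lpin1, Igfbp1 and Ip6k2 are lower in all KO mice, and Sp5, Axin2 and Tbx3 are higher in all KO mice, while Glul, Col1a1 and Cd36 overlap between genotypes.

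The state of feeding and fasting was read from 3 lists. Among genes that refeeding induces for lipogenesis and glycolysis, 19 of 24 measured members had a lower estimate in KO, none passed limma's adjusted threshold, and 5 had an unadjusted limma p under 0.05, all lower; edgeR and DESeq2 also called none. Their median log2 fold change was -0.17, against 0.00 over all genes. It ran from -0.24 to -0.10 over the settings, which are the reported fit, its alternatives and the fits without 1 mouse, and the ranges of other medians are over the same settings. Scd1, the stearoyl-CoA desaturase, was 1648 ± 852 in KO and 2891 ± 605 FPKM in WT (log2 fold change -1.02, SE 0.42, limma adjusted p = 0.361). Malic enzyme Me1, which supplies NADPH, was 53.1 ± 12.7 in KO and 89.3 ± 31.2 FPKM in WT without overlap (log2 fold change -0.71, SE 0.21, limma adjusted p = 0.234). Per mouse, Scd1 measured 431, 2706, 2101, 1336 and 1667 FPKM in KO and 2565, 3206, 2625, 2272 and 3788 FPKM in WT. The KO livers spread widely for Scd1, with mouse 151 lowest and mouse 152 inside the WT range, so the genotypes overlapped. Aacs, which activates ketone bodies for lipid synthesis, was 57.6 ± 8.13 in KO and 74.2 ± 18 FPKM in WT (log2 fold change -0.34, SE 0.15, limma adjusted p = 0.39). The regulators of these enzymes had estimates on both sides. Srebf1, the gene of SREBP1, was 184 ± 52.7 in KO and 138 ± 20.9 FPKM in WT (log2 fold change 0.38, SE 0.17, limma adjusted p = 0.398). Mlxipl, the gene of ChREBP, was 99.2 ± 13.1 in KO and 104 ± 12.7 FPKM in WT (log2 fold change -0.072, SE 0.10, limma adjusted p = 0.825). Acaca, the acetyl-CoA carboxylase, was 10.1 ± 2.57 in KO and 11 ± 1.24 FPKM in WT (log2 fold change -0.13, SE 0.14, limma adjusted p = 0.753).

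Genes that fasting induces outside the PPARA targets showed no common direction. Of 23 members, 14 had a lower and 9 a higher estimate (median -0.040, -0.088 to 0.019 over the settings), and Lpin1 and Igfbp1 fell. Pck1, the phosphoenolpyruvate carboxykinase of gluconeogenesis, was 629 ± 140.3 in KO and 749.6 ± 152 FPKM in WT (log2 fold change -0.26, SE 0.17, limma adjusted p = 0.577). By contrast, G6pc, the glucose-6-phosphatase that releases glucose, was 397 ± 109.6 in KO and 262 ± 77.3 FPKM in WT (log2 fold change 0.60, SE 0.23, limma adjusted p = 0.337). G6pc was 546, 321, 400.5, 266 and 449.5 FPKM in the KO mice and 306, 247, 212, 176 and 371 FPKM in the WT mice. WT mice overlapped with the KO mice for G6pc. Sik1, a salt-inducible kinase that cAMP induces and that restrains CREB coactivators, was 9.47 ± 4.71 in KO and 3.53 ± 1.06 FPKM in WT without overlap (log2 fold change 1.15, SE 0.25, limma adjusted p = 0.112). DESeq2 called 5 members, Lpin1, Lpin2 and Igfbp1 lower and Sik1 and Nr4a1 higher.

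PPARA targets of fasting had a lower estimate in KO for 19 of 20 members (median -0.27), of which limma called none, with 6 at an unadjusted p under 0.05, all lower. DESeq2 called 1, Angptl4, the lipoprotein lipase inhibitor, and edgeR none. Angptl4 was 46.9 ± 7.56 in KO and 70.3 ± 11 FPKM in WT (log2 fold change -0.57, SE 0.13, limma adjusted p = 0.122). The thioesterase Acot2 was 7.18 ± 3.29 in KO and 10.7 ± 0.586 FPKM in WT (log2 fold change -0.62, SE 0.23, limma adjusted p = 0.333). The fatty acid hydroxylase Cyp4a31 was 1.41 ± 0.484 in KO and 2.03 ± 0.134 FPKM in WT (log2 fold change -0.35, SE 0.12, limma adjusted p = 0.273). Ppara itself was 60.1 ± 14.1 in KO and 60.5 ± 9.16 FPKM in WT (log2 fold change -0.030, SE 0.17, limma adjusted p = 0.964). In KO mice 151, 156 and 157, 14, 14 and 17 of the 20 members lay below the whole WT range. In mouse 152 it was 10, and in mouse 153 none lay below and 8 above. Over all genes, 25.5%, 22.7%, 16.3%, 22.7% and 24% lay below the WT range in these 5 mice.

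Insulin-responsive genes were divided into those that insulin induces, the FOXO1 targets it represses and the components of its signalling. Angptl8, a feeding- and insulin-induced hepatokine that steers lipoprotein lipase activity between tissues, was 122 ± 68.1 in KO and 25.4 ± 6.9 FPKM in WT. The KO mice had 226, 122, 114, 35.9 and 109.8 FPKM of Angptl8 and the WT mice 30.4, 23.5, 34.4, 17.5 and 21.1 FPKM. Every KO mouse exceeded every WT mouse, with an exact permutation p of 0.00794, the smallest that 5 against 5 mice allow. It missed limma's threshold (log2 fold change 2.04, SE 0.40, limma adjusted p = 0.0868) and passed that of edgeR (adjusted p = 0.0467) and DESeq2 (adjusted p = 6.43e-05). Of the insulin-induced genes, 8 of 14 had a lower estimate (list median -0.082, -0.20 to -0.017 over the settings, and -0.021 without WT mouse 155), limma called none, and 4 members, with Scd1, Elovl6 and Ppp1r3g among them, had an unadjusted p under 0.05 on the lower side. Ppp1r3g, a glycogen-targeting subunit of protein phosphatase 1, was 0.826 ± 0.673 in KO and 1.46 ± 0.225 FPKM in WT (log2 fold change -0.49, SE 0.20, limma adjusted p = 0.36).

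Of 17 FOXO1 targets, Igfbp1 fell and no other member passed (median -0.040, -0.082 to 0.010 over the settings), with 11 lower and 6 higher estimates. Ccng2, an atypical cyclin, was 2.61 ± 0.594 in KO and 3.82 ± 0.385 FPKM in WT (log2 fold change -0.43, SE 0.11, limma adjusted p = 0.165) and passed in DESeq2 (adjusted p = 0.0238). Trib1, a pseudokinase of lipogenic control, was 15.2 ± 2.74 in KO and 12.5 ± 1.15 FPKM in WT (log2 fold change 0.26, SE 0.11, limma adjusted p = 0.387). Irs2, the insulin receptor substrate that FOXO1 induces, was 4.36 ± 1.91 in KO and 3.91 ± 1.16 FPKM in WT (log2 fold change 0.092, SE 0.23, limma adjusted p = 0.908). The gluconeogenic members Pck1 and G6pc had estimates on opposite sides, as given above.

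No transcript of the insulin pathway itself was called. Of 32 measured components, 15 had a higher and 17 a lower estimate (median -0.0079, -0.072 to 0.022 over the settings), and limma, edgeR and DESeq2 called none, with 2 at an unadjusted limma p under 0.05. Those were Akt1, at 18.8 ± 2.22 in KO and 16.3 ± 0.698 FPKM in WT (log2 fold change 0.19, SE 0.074, limma adjusted p = 0.34), and Irs1. The latter was 1.6 ± 0.278 in KO and 1.28 ± 0.162 FPKM in WT (log2 fold change 0.18, SE 0.083, limma adjusted p = 0.396). Mtor was 8.29 ± 0.91 in KO and 9.42 ± 0.715 FPKM in WT (log2 fold change -0.17, SE 0.077, limma adjusted p = 0.398). Protein phosphorylation, through which this pathway acts, was not measured.

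**Figure D3:**
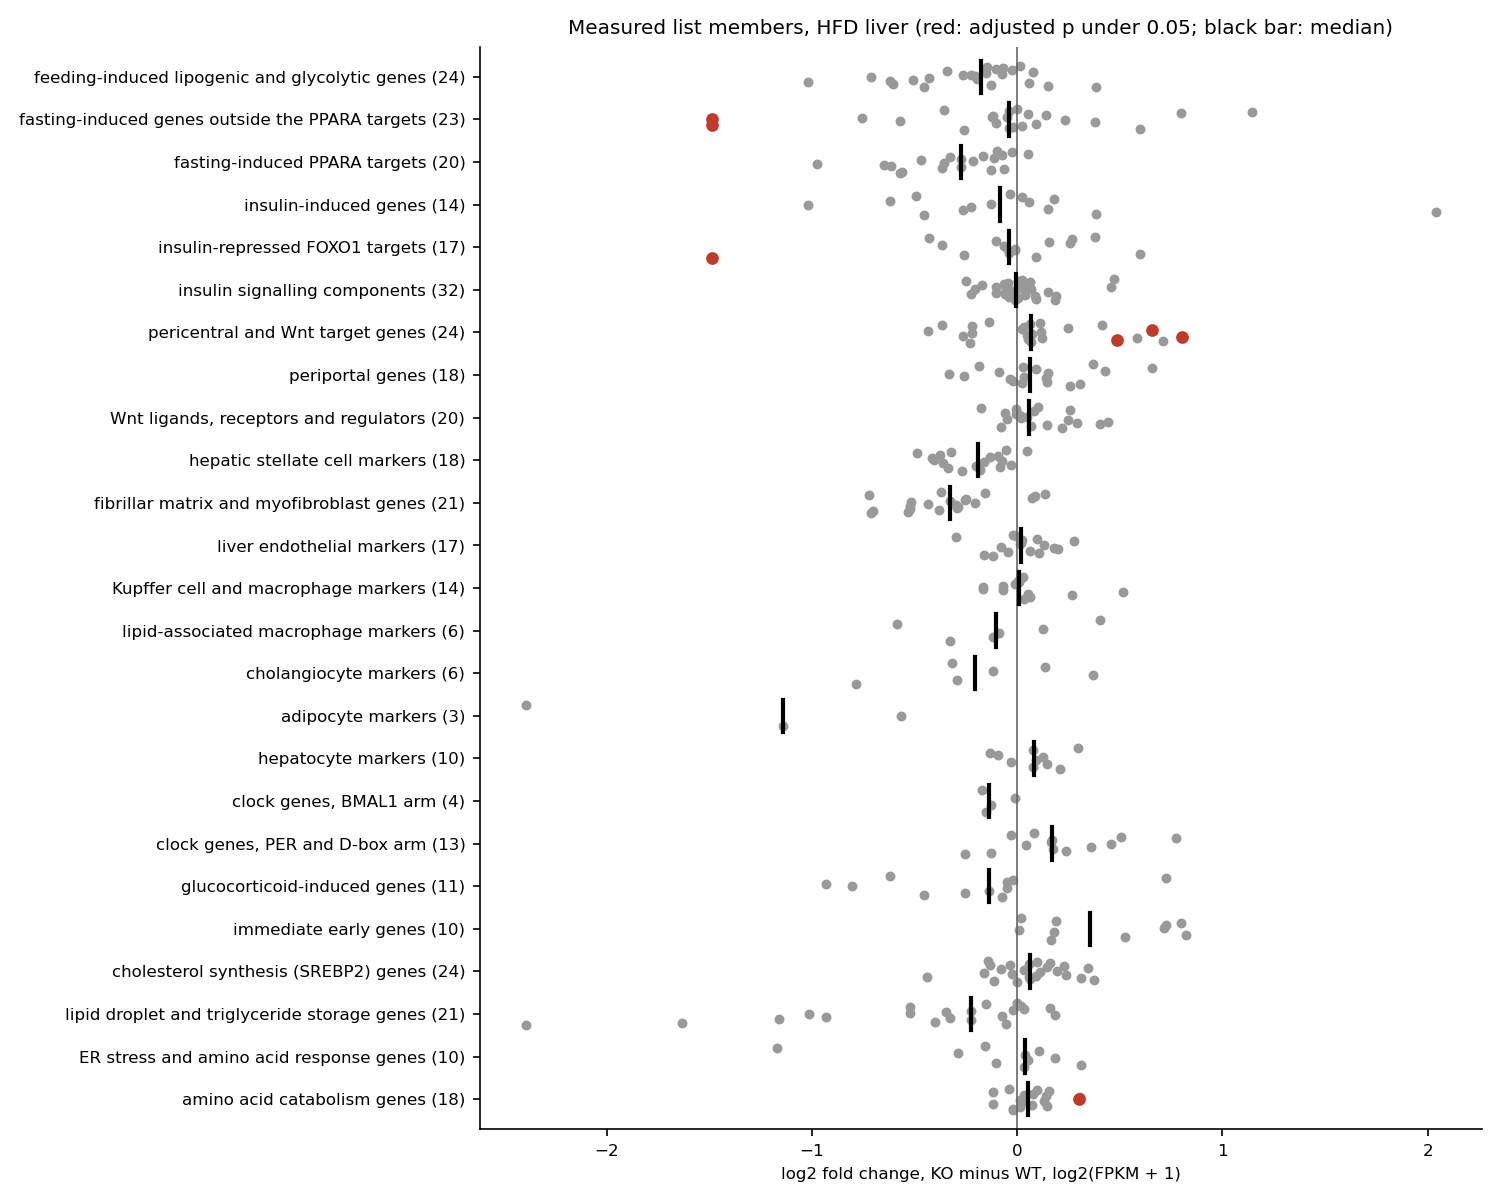
Log2 fold change (KO minus WT) of each measured member of the gene lists with at least 3 measured members, one point per gene, the number measured in brackets, members past the adjusted threshold in red and the list median as a black bar. Red points occur in the fasting-induced, FOXO1, pericentral and amino acid catabolism lists. Medians of the stellate, matrix, lipid droplet and PPARA lists lie below 0.

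Wnt-responsive genes of the pericentral zone contained 3 called genes among 24, all higher in KO, where 0.129% of all genes were called higher. The list was chosen with earlier results of these data known. Sp5, a transcription factor gene that beta-catenin induces directly, was 2.74 ± 0.274 in KO and 1.38 ± 0.237 FPKM in WT. Per mouse, Sp5 measured 2.83, 2.95, 2.98, 2.6 and 2.33 FPKM in KO and 1.6, 1.14, 1.58, 1.1 and 1.46 FPKM in WT. The KO and WT values did not overlap (log2 fold change 0.66, SE 0.082, limma adjusted p = 0.0145). Axin2, the scaffold of the destruction complex and the standard feedback target of the pathway, was 2.3 ± 0.205 in KO and 1.35 ± 0.149 FPKM in WT. Axin2 was 2.55, 2.37, 2.29, 2.28 and 1.99 FPKM in the KO mice and 1.36, 1.39, 1.56, 1.32 and 1.14 FPKM in the WT mice. KO values again lay above all WT values (log2 fold change 0.49, SE 0.066, limma adjusted p = 0.0188), at a low level supported by 115 to 251 reads per library. Tbx3, a T-box repressor of pericentral and midlobular hepatocytes, was 9.18 ± 1.11 in KO and 4.85 ± 0.866 FPKM in WT (log2 fold change 0.80, SE 0.11, limma adjusted p = 0.0188). The KO mice had 10.1, 10.3, 9.31, 7.6 and 8.59 FPKM of Tbx3 and the WT mice 5.92, 3.98, 5.56, 4.09 and 4.71 FPKM. Its lowest KO value exceeded its highest WT value.

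Single mice bore on these 3 calls. Sp5 lost its call without KO mouse 151 or 153 (limma adjusted p 0.0515 to 0.0565). Axin2 lost its call without WT mouse 154, 162 or 164 or KO mouse 151 or 153 (0.0536 to 0.0655 by limma), and Tbx3 without WT mouse 162 or 164 or KO mouse 151 or 153 (0.0542 to 0.0676 by limma). All 3 genes passed in edgeR and DESeq2.

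Rnf43, the membrane ubiquitin ligase that removes Frizzled receptors and is itself a Wnt target, was 7.19 ± 1.17 in KO and 4.47 ± 0.779 FPKM in WT without overlap (log2 fold change 0.59, SE 0.12, limma adjusted p = 0.0929). It passed in DESeq2 (adjusted p = 3.62e-04) and not in edgeR (adjusted p = 0.0643). Cyp1a2, a pericentral cytochrome P450 of xenobiotic metabolism named after its values were seen, had means of 288 FPKM in KO and 168 FPKM in WT without overlap (log2 fold change 0.71, SE 0.20, limma adjusted p = 0.222, DESeq2 adjusted p = 0.00613). DESeq2 called 5 members of the pericentral list, Sp5, Axin2, Tbx3, Rnf43 and Cyp1a2, and edgeR the first 3. Over all genes, DESeq2 called 1.82% of those it adjusted and edgeR 25 of 14412. Glul, Cyp2e1 and Lgr5 were called by none of these tools. Glul, the glutamine synthetase of the last hepatocytes around the central vein, was 416 ± 91.1 in KO and 481 ± 37.8 FPKM in WT (log2 fold change -0.23, SE 0.14, limma adjusted p = 0.525). Cyp2e1, the ethanol-oxidizing cytochrome P450 of the zone, was 5856 ± 763 in KO and 5599 ± 872 FPKM in WT (log2 fold change 0.069, SE 0.12, limma adjusted p = 0.865). Lgr5, the R-spondin receptor, was 0.769 ± 0.176 in KO and 0.717 ± 0.306 FPKM in WT (log2 fold change 0.055, SE 0.13, limma adjusted p = 0.898). Over the 24 members, 17 had a higher and 7 a lower estimate with a median of 0.066 (0.00195 on the TPM scale, 0.00195 to 0.12 over the settings), and 6 had an unadjusted limma p under 0.05, all higher.

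Periportal genes had no called member by limma, edgeR or DESeq2. Of 18, 12 had a higher estimate, 1 had an unadjusted limma p under 0.05, and the median was 0.061 (-0.00424 on the TPM scale). Cyp2f2, a periportal cytochrome P450, was 519.8 ± 103 in KO and 429 ± 40.2 FPKM in WT (log2 fold change 0.26, SE 0.13, limma adjusted p = 0.443). Hal, the histidine ammonia-lyase, was 65.6 ± 12.3 in KO and 52.5 ± 7.61 FPKM in WT (log2 fold change 0.31, SE 0.14, limma adjusted p = 0.399). Aldh1b1, a mitochondrial aldehyde dehydrogenase, was 33.1 ± 8.76 in KO and 41.2 ± 5.9 FPKM in WT (log2 fold change -0.33, SE 0.16, limma adjusted p = 0.427). Sox9, expressed in cholangiocytes and the first periportal hepatocytes, was 1.69 ± 0.456 in KO and 1.07 ± 0.266 FPKM in WT (log2 fold change 0.37, SE 0.13, limma adjusted p = 0.298).

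Upstream of beta-catenin, 20 of 30 ligands, receptors and regulators reached the minimum of 0.5 FPKM. Their median was 0.059 (-2.15e-04 on the TPM scale). None was called by limma or edgeR, and 4 had an unadjusted limma p under 0.05, all higher: the receptors Fzd5, Fzd6 and Fzd7 and the nuclear partner of beta-catenin Tcf7l2. Fzd5 was 1.74 ± 0.358 in KO and 1.06 ± 0.167 FPKM in WT (log2 fold change 0.40, SE 0.095, limma adjusted p = 0.135). Per mouse, Fzd5 measured 2.34, 1.63, 1.71, 1.4 and 1.62 FPKM in KO and 1.26, 1.2, 0.923, 1.06 and 0.877 FPKM in WT. The genotypes did not overlap for Fzd5. Fzd7 was 8.9 ± 1.51 in KO and 6.24 ± 0.803 FPKM in WT (log2 fold change 0.44, SE 0.11, limma adjusted p = 0.168), and DESeq2 called Fzd5 and Fzd7 (adjusted p = 0.00304 and 0.00965). The endothelial ligand Wnt2 was 1.59 ± 0.549 in KO and 1.21 ± 0.349 FPKM in WT (log2 fold change 0.22, SE 0.16, limma adjusted p = 0.612). The R-spondin gene Rspo3 was 1.93 ± 0.576 in KO and 2.06 ± 0.271 FPKM in WT (log2 fold change -0.077, SE 0.13, limma adjusted p = 0.851). Wnt9b, the other central vein ligand, stayed under the minimum at 0.402 and 0.327 FPKM (exact permutation p = 0.627). In bulk RNA, fewer cells of a type and less RNA per cell cannot be told apart, which holds for every zonal and stromal list here.

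The sequences before the starts of the genes that moved together were read from GRCm39, the build of the deposited files (mm39), at GENCODE canonical transcripts, 250 bases each. A core TCF/LEF letter run (CTTTGAT, either strand) occurred in 2.85% of 21757 protein-coding promoters, in 4 of the 24 promoters of the pericentral list and, among the genes higher in KO here, in that of Sp5 (chr2:70305017-70305266, strand +), in capitals below, and in none of those of Axin2, Tbx3 and Rnf43. Among the 122 promoters of named genes, 3 held the TCF/LEF run. The match in Sp5 is a description of letters, not a shown binding site.
Sp5: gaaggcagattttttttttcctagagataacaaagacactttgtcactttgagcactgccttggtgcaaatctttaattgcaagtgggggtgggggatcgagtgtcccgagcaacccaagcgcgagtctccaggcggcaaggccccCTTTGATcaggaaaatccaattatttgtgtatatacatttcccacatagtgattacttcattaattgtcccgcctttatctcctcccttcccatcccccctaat

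Stromal genes had lower estimates on the mesenchymal side. Of 18 stellate cell markers, 17 were lower by estimate (median -0.19, -0.30 to -0.15 over the settings), and of 21 matrix and myofibroblast genes 18 (median -0.32, -0.51 to -0.25 over the settings). No member of either list passed in limma or edgeR, with 5 and 6 at an unadjusted limma p under 0.05, all lower, and DESeq2 called Ecm1 of the first list and Ccn2 and Postn of the second. Ecm1, a secreted matrix protein that stellate cells and hepatocytes make, was 49.3 ± 7.31 in KO and 65.6 ± 5.26 FPKM in WT without overlap (log2 fold change -0.41, SE 0.097, limma adjusted p = 0.131). Hand2, a transcription factor of stellate cells, was 2.57 ± 0.509 in KO and 3.62 ± 0.439 FPKM in WT (log2 fold change -0.38, SE 0.10, limma adjusted p = 0.181). Cytoglobin, Cygb, was 4.77 ± 0.889 in KO and 6.2 ± 1.11 FPKM in WT (log2 fold change -0.32, SE 0.12, limma adjusted p = 0.334). Colec11, a stellate cell lectin, was 19.96 ± 4.45 in KO and 25.6 ± 3.13 FPKM in WT (log2 fold change -0.36, SE 0.14, limma adjusted p = 0.34). Lrat, which esterifies retinol for storage, was 2.81 ± 1.45 in KO and 3.52 ± 1.3 FPKM in WT (log2 fold change -0.27, SE 0.27, limma adjusted p = 0.733).

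Among the matrix genes, Ccn2, a matricellular protein induced by TGF-beta and YAP, was 2.69 ± 0.762 in KO and 5.08 ± 1.2 FPKM in WT (log2 fold change -0.72, SE 0.18, limma adjusted p = 0.165). Periostin, Postn, was 0.594 ± 0.186 in KO and 1.3 ± 0.427 FPKM in WT (log2 fold change -0.52, SE 0.14, limma adjusted p = 0.179). Fibrillar collagens were at low levels. Col1a1 was 0.923, 4.45, 3.31, 0.718 and 0.82 FPKM in the KO mice and 3.56, 4.4, 1.95, 2.61 and 5.32 FPKM in the WT mice. Col1a1 was lowest in KO mice 151, 156 and 157, and mice 152 and 153 lay inside the WT range (log2 fold change -0.71, SE 0.35, limma adjusted p = 0.449). Col3a1 was 2.86 ± 2.02 in KO and 4.91 ± 1.64 FPKM in WT (log2 fold change -0.70, SE 0.31, limma adjusted p = 0.393) and Col5a1 0.951 ± 0.313 in KO and 1.54 ± 0.373 FPKM in WT (log2 fold change -0.38, SE 0.13, limma adjusted p = 0.284). Acta2, the smooth muscle actin of myofibroblasts and vessel walls, was 18.1 FPKM in WT mouse 155 and at most 1.87 FPKM elsewhere. Its log2 fold change of -0.43 became 0.22 without that mouse, and neither passed.

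The lower stromal values were not common to all KO mice. In KO mice 151, 156 and 157, 15, 15 and 13 of 18 stellate markers and 18, 19 and 15 of 21 matrix genes lay below the whole WT range, against 2 and 2 stellate markers and 1 and 1 matrix genes in mice 152 and 153. The shares of all genes below it were 25.5%, 22.7% and 24% in mice 151, 156 and 157 and 22.7% and 16.3% in mice 152 and 153. KO mice 151, 156 and 157 also had larger FPKM sums, 539968 to 549786 against 488394 to 521861 in the other 7 HFD livers. On the TPM scale, which removes that difference, the medians of both lists were -0.23 and -0.37. Without WT mouse 155 they were -0.19 and -0.27.

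Endothelial and macrophage lists had medians near 0, 0.019 (-0.032 on the TPM scale) and 0.010 (-0.043 on the TPM scale), and no member of either reached even an unadjusted limma p under 0.05 or a call in edgeR or DESeq2. KO mouse 152 lay above the WT range in 13 of 14 Kupffer cell and macrophage genes and in 15 of 17 endothelial genes, whereas KO mouse 151 lay below it in 13 of the 14 macrophage genes. The shares over all genes were 18.3% above in mouse 152 and 25.5% below in mouse 151. Marco, a scavenger receptor, illustrates the spread of the macrophage genes. The KO mice had 0.794, 9.2, 6.87, 1.16 and 0.857 FPKM of Marco and the WT mice 0.958, 1.86, 1.35, 1.82 and 1.62 FPKM. Without KO mouse 152 the macrophage median was -0.25. Stab2, a hyaluronan receptor of sinusoidal endothelium, was 5.35 ± 0.861 in KO and 6.08 ± 0.814 FPKM in WT (log2 fold change -0.16, SE 0.10, limma adjusted p = 0.565). Gpr182 of the same cells was 6.84 ± 0.985 in KO and 5.85 ± 0.848 FPKM in WT (log2 fold change 0.20, SE 0.10, limma adjusted p = 0.481).

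Of 10 lipid-associated macrophage markers, 6 were measured, 4 with a lower estimate, and none passed in limma, edgeR or DESeq2. Cd63 had the smallest p, at 1.03 ± 0.535 in KO and 2.03 ± 0.712 FPKM in WT (log2 fold change -0.59, SE 0.19, limma adjusted p = 0.267). Trem2 and Gpnmb, which define these cells, stayed under 0.5 FPKM, as did 13 of 14 lymphocyte markers. Cholangiocyte markers gave a median of -0.20 over 6 genes, which turned to 0.16 without WT mouse 155. The defining adipocyte markers Adipoq, Lep, Plin1, Retn and Aqp7 were under 0.5 FPKM as means over the 10 livers, and the 3 adipocyte markers measured, Cidea, Cfd and Fabp4, had lower estimates. The summed level of all 8 listed adipocyte markers was 4.13 to 54.4 FPKM in KO and 45.9 to 92.3 FPKM in WT livers. Cfd had means of 13 FPKM in KO and 26 FPKM in WT, and Cidea 6.46 and 26.5 FPKM. In the 9 livers other than WT mouse 155, Adipoq, Lep and Plin1 were at most 0.0443, 0.0457 and 0.0263 FPKM. Retn and Aqp7 were at most 0.199 and 0.155 FPKM there. The part of adipocyte transcripts in the results was not tested.

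**Figure D4:**
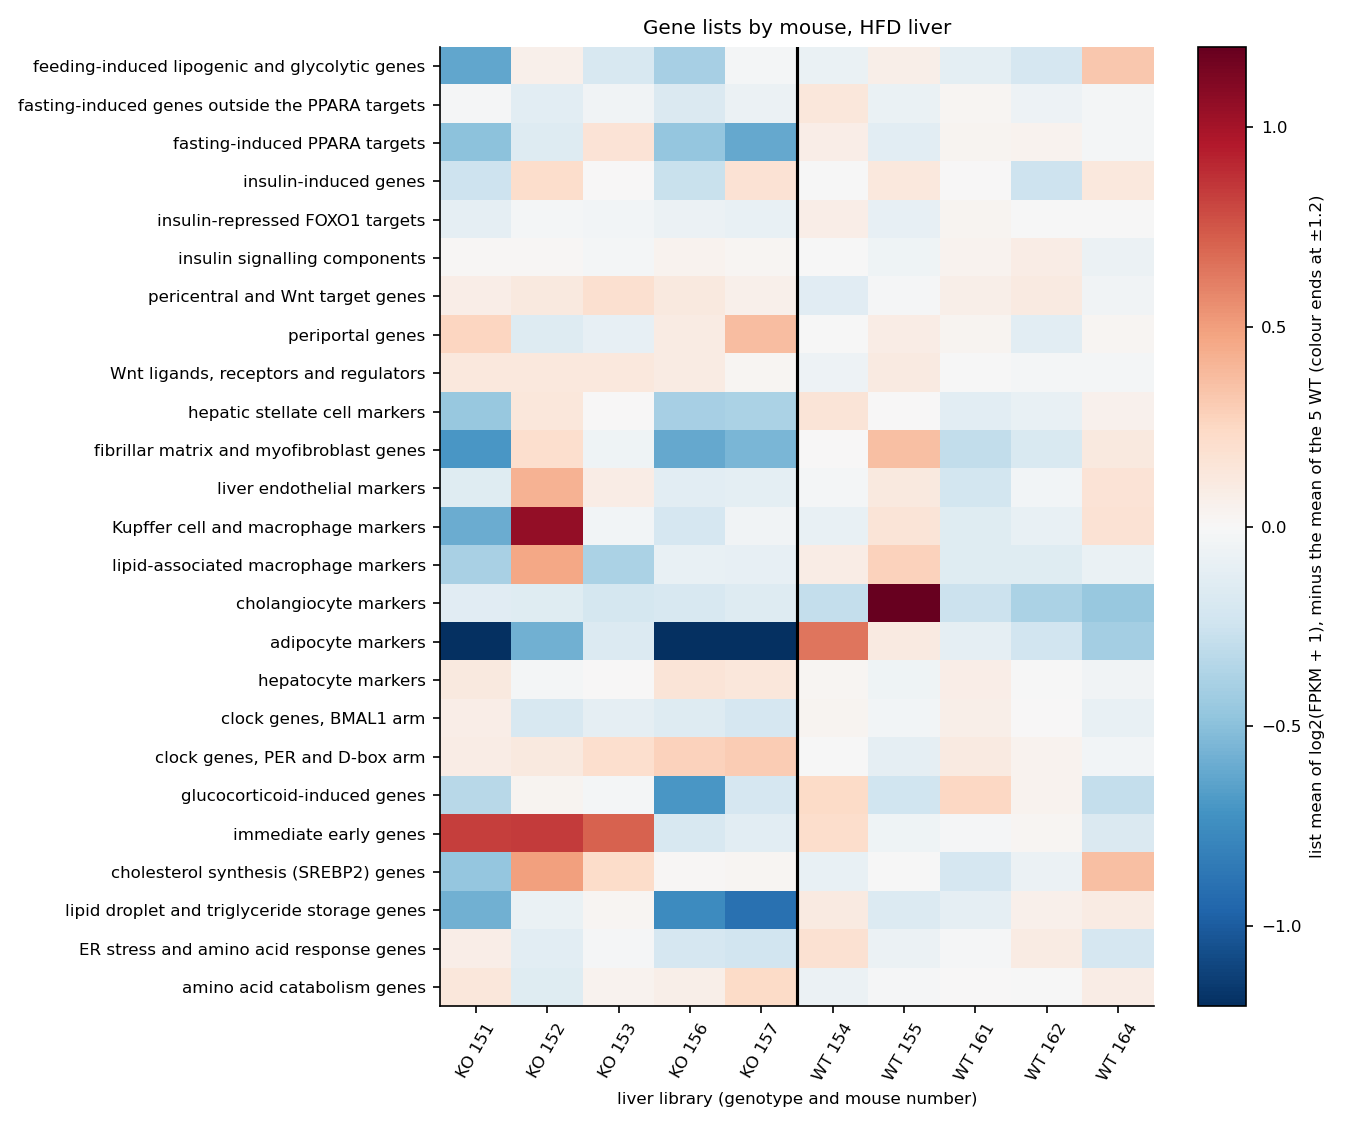
Mean of log2(FPKM + 1) over the measured members of each list in each HFD liver, minus the mean of the 5 WT livers, with KO mice left and WT mice right of the line. KO mice 151, 156 and 157 are low for stellate, matrix, lipid droplet and PPARA lists, and KO mouse 152 is high for macrophage, endothelial and cholesterol synthesis lists.

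Cidea is also a lipid droplet gene of fatty hepatocytes, and it led the triglyceride storage list. Per mouse, Cidea measured 4.0, 11.7, 14.4, 2.22 and 0 FPKM in KO and 30.9, 17.2, 17.8, 29.6 and 37 FPKM in WT. No KO mouse overlapped with a WT mouse for Cidea, but the KO mice spread so widely that the test was not passed (log2 fold change -2.40, SE 0.65, limma adjusted p = 0.192). Of 21 measured members, 17 were lower by estimate (median -0.22), 7 at an unadjusted limma p under 0.05, all lower, and limma, edgeR and DESeq2 called none. Mogat1, a monoacylglycerol acyltransferase, was 2.0 ± 1.23 in KO and 4.43 ± 1.03 FPKM in WT without overlap (log2 fold change -0.93, SE 0.25, limma adjusted p = 0.188). The fatty acid transporter Cd36 was 34.9 ± 21 in KO and 62.4 ± 4.61 FPKM in WT (log2 fold change -1.01, SE 0.33, limma adjusted p = 0.267). Pparg, which drives steatosis genes in obese liver, was 8.21 ± 3.53 in KO and 11.6 ± 2.33 FPKM in WT (log2 fold change -0.52, SE 0.25, limma adjusted p = 0.439). The droplet protein Plin5 was 40.1 ± 6.38 in KO and 50.4 ± 6.15 FPKM in WT (log2 fold change -0.33, SE 0.12, limma adjusted p = 0.295). As with the stroma, KO mice 151, 156 and 157 held the low values, with 14, 15 and 16 of 21 members below the WT range against 5 and 3 in mice 152 and 153. Of all genes, 25.5%, 22.7% and 24% lay below it in mice 151, 156 and 157, and 22.7% and 16.3% in mice 152 and 153.

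Cholesterol synthesis genes under SREBP2 had a median of 0.062 over 24 genes (-0.00298 on the TPM scale), with 2 at an unadjusted limma p under 0.05 and none called by limma, edgeR or DESeq2. Here KO mouse 152 lay above the WT range in 19 members and KO mouse 151 below it in 20. The shares over all genes were 18.3% above in mouse 152 and 25.5% below in mouse 151. Ebp, a sterol isomerase, was 110.4 ± 2.25 in KO and 103 ± 4.12 FPKM in WT (log2 fold change 0.098, SE 0.041, limma adjusted p = 0.368). Mevalonate kinase, Mvk, was 5.87 ± 1.3 in KO and 4.38 ± 0.971 FPKM in WT (log2 fold change 0.35, SE 0.15, limma adjusted p = 0.39).

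Genes that follow the time of day were divided into the arms of the clock. In the PER and D-box arm, 10 of 13 members were higher by estimate (median 0.17, 0.10 on the TPM scale), 7 at an unadjusted limma p under 0.05, all higher, and limma and edgeR called none while DESeq2 called Bhlhe40, Bhlhe41, Nr1d1 and Dbp. Bhlhe40, a repressor at E-boxes that light, feeding and hypoxia induce, was 76.4 ± 19 in KO and 43.3 ± 5.59 FPKM in WT (log2 fold change 0.77, SE 0.17, limma adjusted p = 0.122). Its relative Bhlhe41 was 1.17 ± 0.252 in KO and 0.523 ± 0.134 FPKM in WT without overlap (log2 fold change 0.51, SE 0.098, limma adjusted p = 0.0868). Nr1d1, the gene of REV-ERB alpha, was 14.2 ± 1.21 in KO and 10.9 ± 1.27 FPKM in WT without overlap (log2 fold change 0.36, SE 0.081, limma adjusted p = 0.122). Dbp, the D-box factor, was 46.4 ± 9.41 in KO and 33.3 ± 4.41 FPKM in WT without overlap (log2 fold change 0.46, SE 0.13, limma adjusted p = 0.218). Dbp was 39.6, 42, 41.4, 62.6 and 46.3 FPKM in the KO mice and 28.1, 29.3, 34.3, 38 and 36.7 FPKM in the WT mice. Lower estimates were found for 3 members of this arm, Per1 and Per2 among them. Per1 was 12.4 FPKM in KO and 14.1 FPKM in WT (log2 fold change -0.25, SE 0.23, limma adjusted p = 0.704). Per2 was 16.5 and 17.8 FPKM (-0.13, SE 0.11, limma adjusted p = 0.696) and Per3 9.27 and 7.66 FPKM (0.24, SE 0.092, limma adjusted p = 0.333). In the opposite arm, Bmal1 (Arntl) and Npas2 were under the minimum, and the 4 measured members had lower estimates (median -0.14). Clock was 3.14 ± 0.281 in KO and 3.59 ± 0.114 FPKM in WT (log2 fold change -0.15, SE 0.055, limma adjusted p = 0.314). Limma, edgeR and DESeq2 called none of these 4, and 2 had an unadjusted limma p under 0.05. Collection times were not known, and their part in these values was not tested.

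Immediate early genes, which respond within minutes to stress, handling, serum factors or a meal, had higher estimates for all 10 measured members (median 0.36), with 3 at an unadjusted limma p under 0.05, none called by limma or edgeR, and Ier2 and Nr4a1 called by DESeq2. Ier2 was 22.9 ± 5.85 in KO and 13.3 ± 1.17 FPKM in WT without overlap (log2 fold change 0.71, SE 0.14, limma adjusted p = 0.0868). Nr4a1, a nuclear receptor that cAMP induces, was 2.14 ± 0.983 in KO and 0.741 ± 0.141 FPKM in WT, also without overlap (log2 fold change 0.80, SE 0.19, limma adjusted p = 0.148). Junb was 13.4 ± 6.69 in KO and 6.54 ± 1.29 FPKM in WT (log2 fold change 0.82, SE 0.29, limma adjusted p = 0.295). The KO mice had 21.6, 19.2, 11.8, 7.66 and 6.8 FPKM of Junb and the WT mice 8.38, 6.44, 5.99, 6.98 and 4.89 FPKM. KO mice 151, 152 and 153 were the high ones, with 6, 9 and 9 of the 10 members above the WT range, against 2 and 2 in mice 156 and 157, where 5 and 3 lay below that range. Of all genes, 26.1%, 18.3%, 19%, 26% and 25.5% lay above the range in mice 151, 152, 153, 156 and 157. Below it lay 22.7% and 24% in mice 156 and 157. Without KO mouse 153 the list median was 0.19, and it ran from 0.19 to 0.67 over the settings. Dusp1, which glucocorticoids and immediate early signals both induce, was 41.7 ± 31.3 in KO and 20.3 ± 6.84 FPKM in WT (log2 fold change 0.72, SE 0.49, limma adjusted p = 0.586). The other glucocorticoid-induced genes, 10 of 11 measured, had lower estimates (list median -0.14, -0.26 to -0.081 over the settings), and limma, edgeR and DESeq2 called none, with 1 at an unadjusted limma p under 0.05. That gene was the cell cycle inhibitor Cdkn1a, at 1.31 ± 1.02 in KO and 3.3 ± 1.38 FPKM in WT (log2 fold change -0.93, SE 0.30, limma adjusted p = 0.255). The metallothionein Mt1 was 69.2 ± 29.8 in KO and 124 ± 66.6 FPKM in WT (log2 fold change -0.80, SE 0.39, limma adjusted p = 0.436) and Tsc22d3, known as GILZ, 30.7 ± 15.3 in KO and 39.9 ± 8.41 FPKM in WT (log2 fold change -0.45, SE 0.26, limma adjusted p = 0.514).

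Promoters of genes with cAMP-response and clock roles were searched in the same way. A full cAMP response element (TGACGTCA, a palindrome) occurred in 1.7% of all promoters and in 6 of the 122 promoters of named genes, which were those of Dusp1, Ier2, Lgr5, Sik1, Topors and Trib1. An E-box (CACGTG, a palindrome) occurred in 6.26% of all, in 5 of the 122 promoters of named genes and in 5 of 13 promoters of the PER and D-box list. The cAMP response element occurred in 0 of these 13. The sequences of Ier2 (chr8:85389484-85389733, strand -), Sik1 (chr17:32074819-32075068, strand -), Topors (chr4:40269851-40270100, strand -) and Bhlhe40 (chr6:108636376-108636625, strand +) are shown because DESeq2 called all 4 genes higher in KO, and the element is in capitals.
Ier2: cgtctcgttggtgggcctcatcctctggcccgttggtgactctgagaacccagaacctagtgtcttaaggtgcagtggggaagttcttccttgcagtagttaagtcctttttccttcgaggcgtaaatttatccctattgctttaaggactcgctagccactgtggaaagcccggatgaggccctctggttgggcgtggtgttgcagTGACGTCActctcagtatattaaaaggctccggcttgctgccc
Sik1: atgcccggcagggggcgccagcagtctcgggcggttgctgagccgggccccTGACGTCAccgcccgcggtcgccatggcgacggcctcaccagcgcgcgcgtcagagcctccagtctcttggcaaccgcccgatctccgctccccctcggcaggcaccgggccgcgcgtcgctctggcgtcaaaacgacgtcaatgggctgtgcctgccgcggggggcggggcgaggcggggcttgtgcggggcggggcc
Topors: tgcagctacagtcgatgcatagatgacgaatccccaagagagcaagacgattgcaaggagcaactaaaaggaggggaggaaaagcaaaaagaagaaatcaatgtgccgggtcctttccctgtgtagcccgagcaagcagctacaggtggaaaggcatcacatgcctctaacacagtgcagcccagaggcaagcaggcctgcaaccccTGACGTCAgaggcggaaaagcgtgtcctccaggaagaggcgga
Bhlhe40: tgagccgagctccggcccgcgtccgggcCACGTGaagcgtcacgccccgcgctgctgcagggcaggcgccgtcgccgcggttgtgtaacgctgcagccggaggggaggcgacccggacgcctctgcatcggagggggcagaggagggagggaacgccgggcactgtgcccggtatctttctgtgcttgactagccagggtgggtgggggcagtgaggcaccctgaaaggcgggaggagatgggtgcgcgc
Igfbp1 held a TCF/LEF run and neither the FOXO run GTAAACA nor the insulin response run CAAAACA in its window (chr11:7147401-7147650, strand +). That window ends before the gene start in the deposited annotation, 7147782, and the bases between were not searched. The absence of both runs therefore holds for the window only. The FOXO and insulin response runs occurred in 2.72% and 6.13% of all promoters, and in 0 and 1 of 17 promoters of the FOXO1 target list.

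Among stress and nitrogen genes, 1 was called. The integrated stress response factor Atf4 was 45.6 ± 7.49 in KO and 36.2 ± 1.7 FPKM in WT without overlap (log2 fold change 0.31, SE 0.095, limma adjusted p = 0.239), while its target Chac1, which degrades glutathione, was 3.87 ± 2.05 in KO and 9.75 ± 4.18 FPKM in WT (log2 fold change -1.17, SE 0.35, limma adjusted p = 0.234). The list of ER stress and amino acid response genes had a median of 0.036 over 10 genes (-0.024 on the TPM scale) and no call by limma, edgeR or DESeq2, with 2 at an unadjusted limma p under 0.05. Bckdhb, the E1 beta subunit of branched-chain ketoacid dehydrogenase, was the called member among 18 genes of amino acid catabolism. Per mouse, Bckdhb measured 79.3, 82.3, 85.5, 76.4 and 77.5 FPKM in KO and 63.6, 60.5, 66.7, 66.2 and 67.9 FPKM in WT. The groups did not overlap (log2 fold change 0.30, SE 0.048, limma adjusted p = 0.0453), but the call was lost in each of the 10 fits without 1 mouse (limma adjusted p 0.056 to 0.146). The median of that list was 0.052 (-0.016 on the TPM scale). Gpt, the alanine aminotransferase, was 171 ± 18.3 in KO and 153 ± 6.43 FPKM in WT (log2 fold change 0.15, SE 0.073, limma adjusted p = 0.43).

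The genotype differences on HFD were set beside those of 4 KO and 4 WT livers on NCD, where the exact test cannot go below p = 0.0286. A limma model of all 18 livers tested whether the difference changed with diet and called 2 of 13248 genes (0.0151%), the predicted Gm5540 among them. Estimates of the Wnt targets were below 0 on NCD with the library labelled WT 182 included. Tbx3 had -0.55, Axin2 -0.36, Sp5 -0.18 and Rnf43 -0.021 there. Their differences between diets missed the limma threshold, at 1.36 for Tbx3 (adjusted p = 0.0582), 0.83 for Sp5 (adjusted p = 0.101) and 0.85 for Axin2 (adjusted p = 0.185). DESeq2, fitted only with the library labelled WT 182 included, gave adjusted p = 7.57e-05, 0.00462 and 0.00762 for the same terms. Leaving out the library labelled WT 182 gave 1.29, 0.83 and 0.69 by limma (adjusted p = 0.0854, 0.117 and 0.178).

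On NCD, with the library labelled WT 182 included, Lpin1 had a log2 fold change of -0.15, Igfbp1 -0.032 and Ip6k2 -0.15. Limma called none of the differences between diets. Those were -1.33 for Lpin1 (limma adjusted p = 0.249), -1.45 for Igfbp1 (limma adjusted p = 0.585) and -0.996 for Ip6k2 (limma adjusted p = 0.172). Without the library labelled WT 182 they were -1.04, -1.70 and -0.90, and limma again called none (adjusted p = 0.209, 0.364 and 0.209).

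Kng1 was higher in every KO liver than in every WT liver on both diets, and Zfp949 likewise except for the library labelled WT 182 on NCD. Kng1 was 1420.3 to 1619 FPKM in NCD KO livers and 735 to 794 FPKM in 3 of the NCD WT livers, with 1317 FPKM in the library labelled WT 182. The difference between diets was 0.17 with and -0.018 without that library (limma adjusted p = 0.982 and 0.984). Zfp949 was 3.61 to 4.18 FPKM in NCD KO livers, 2.16 to 2.57 FPKM in the same 3 WT livers and 4.98 FPKM in the library labelled WT 182, which lay above the KO livers for Zfp949 and below them, but above the other WT livers, for Kng1.

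**Figure D5:**
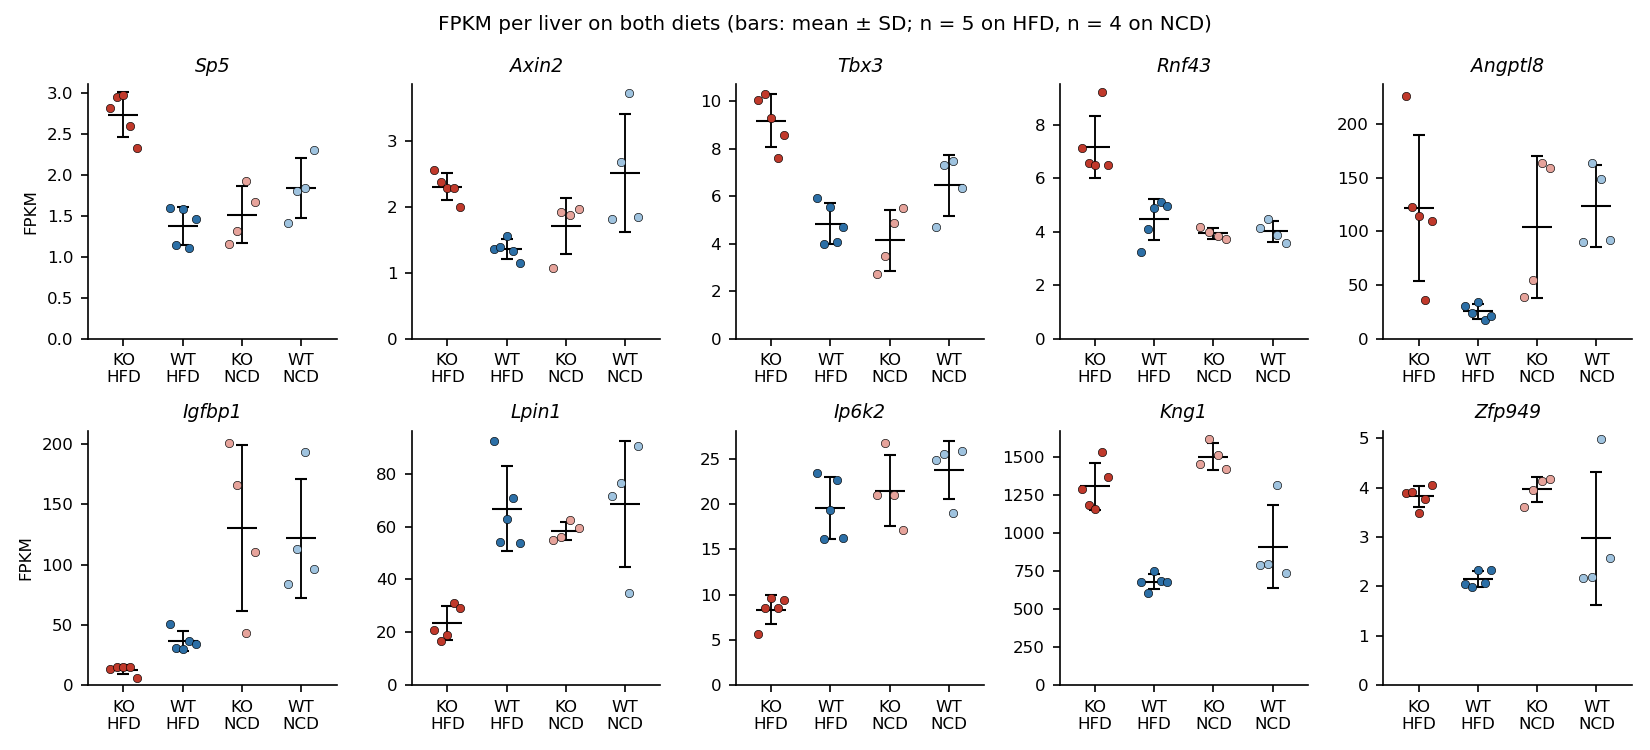
FPKM of 10 genes in each liver on HFD and NCD (linear axes from 0), one point per mouse, with black bars for the mean ± SD (5 mice per genotype on HFD, 4 on NCD). Sp5, Axin2, Tbx3, Rnf43, Angptl8, Igfbp1, Lpin1 and Ip6k2 separate the genotypes on HFD, and on NCD the genotypes overlap for each of these 8, whereas Kng1 is higher in KO on both diets, as is Zfp949 apart from one NCD liver labelled WT.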

How the data were processed

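RNA was sequenced from liver, 1 library per mouse. For each mouse, poly(A) RNA libraries were mapped by the authors to mm39 (HISAT2), and gene counts came from featureCounts 1.5.0-p3, with build and version as in the submitters' processing notes. The annotation release and strand setting are not given in the sources used here, which leaves the values of genes that overlap, run antisense or have close copies uncertain. The deposited values are FPKM per gene and library, made by the authors with a library size that contains a scaling between libraries (0.737 to 0.812 times the reads on genes). Raw counts of reads are deposited by the authors only for genes in their comparison tables, which is why a log-scale test was the main one. Dividing out gene length and library size returned whole reads for 100% of values (tolerance 0.01). The authors' log2 fold changes, p-values and pathway tables were not used, nor were 90 further per-sample columns. Gene length in bases was deposited in the same table. Single genes were also compared with two-sided exact permutation tests, whose smallest p is 0.00794 for 5 against 5 mice.

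Genes with a mean of at least 0.5 FPKM were tested with limma 3.58.1 (R 4.3.3) on log2(FPKM + 1) with a trended prior and Benjamini-Hochberg adjustment (threshold 0.05). Fold changes on this scale understate those of low genes. The interaction with diet was fitted on all 18 livers. Alternatives were edgeR 4.0.16 and DESeq2 1.42.0 on recovered reads, TPM, other filters and pseudocount, and leaving out each mouse. The fit was tested on simulated data. Lists and members were chosen with earlier results of these data known. Named genes were the 10 largest called rises and falls (at least 1 FPKM in a group, no overlap, no predicted genes), called list members or the 4 smallest p per list, the targeted gene and Adipoq, and a set list of metabolic, zonal and stromal genes; others were named after their values were seen. Promoter windows came from GRCm39 with GENCODE annotation, counted from canonical starts. Separate mice are the replicates. Depth was 20875463 to 25371396 reads on genes per HFD liver, so that genes near the minimum rest on few reads. A few genes are not reported here.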

Additional observations from a re-analysis of the deposited data

Results flagged for a closer look

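Single mice stood far from the rest of their group for 19 of 258 groups of 5 values examined in HFD liver, and chance alone marks about 1 in 20. WT mouse 155 was the high one for Krt19 (36.2 FPKM), Epcam (5.88 FPKM), Acta2 (18.1 FPKM) and Adipoq (2.7 FPKM), genes of epithelium, smooth muscle and fat. KO mouse 152 was the high one for Gpr182 (8.58 FPKM), Fabp4 (3.31 FPKM) and hepatic Mlkl (3.46 FPKM), of which the first marks sinusoidal endothelium, and WT mouse 162 was the high one for Mlkl (2.99 FPKM) and the low one for Akt1 (15.1 FPKM). WT mouse 164 stood apart for Me1 (144 FPKM), Mvk (6.11 FPKM), Ier2 (11.3 FPKM) and Ccn2 (3.0 FPKM), and WT mouse 154 for Cygb (8.13 FPKM). Among KO mice, number 157 was low for Igfbp1 (6.01 FPKM) and high for Irs1 (2.09 FPKM), number 151 was low for Ip6k2 (5.62 FPKM), and number 156 was low for Acta2 (0.445 FPKM) and high for Rnf43 (9.22 FPKM).

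The genotype difference changed with diet for 2 genes in the limma interaction. Reported here is Gm5540, a predicted gene chosen after its values were seen. Its difference between diets was 5.42 log2 units (SE 0.63, limma adjusted p = 0.00217). Its means were 9.04 FPKM in KO and 2.4 FPKM in WT on HFD and 0.565 FPKM in KO and 14.8 FPKM in WT on NCD. Fzd5 also had its genotypes apart in opposite directions, higher in KO on HFD and lower on NCD, where its log2 fold change was -0.23. The opposite sides as such were not tested beyond the interaction term, which for Fzd5 was 0.63 (limma adjusted p = 0.153), and the NCD values include the library labelled WT 182. Without it the Fzd5 term was 0.66 (limma adjusted p = 0.159).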

How the results depend on the processing

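The number of called genes on HFD was 26. It was 20 with a pseudocount of 0.1, 23 with a minimum of 1 FPKM, 27 on the TPM scale (12 higher and 15 lower), 25 in edgeR, 7 without a filter on low values, where 27841 genes were tested, and 259 in DESeq2. Without 1 mouse it ran from 9 (without KO mouse 151 or 153) to 37 (without KO mouse 152). Of the 26 genes, 20 were shared with the TPM fit, 18 with edgeR and 24 with DESeq2. The interaction gave 2 genes, and 2 to 5 without 1 mouse, the 5 without WT NCD mouse 165. DESeq2 called 58 genes for the interaction, and only 1 of the 2 limma genes was among them. List medians moved by more than the spread of mice on the TPM scale to -0.0715 for insulin signalling components, -0.000215 for Wnt ligands and receptors and 0.0144 for hepatocyte markers, and without a filter to -0.29 for adipocyte markers. Of the estimates of named genes under the alternatives, 1830 kept direction and side of the threshold, 164 lost and 20 gained the threshold, and 18 reversed, all in genes that were not called. Without 1 mouse the log2 fold change ran from -0.48 to 0.017 for C1qb, -0.22 to 0.0415 for Spp1, -0.44 to 0.12 for Epcam, -0.25 to 0.0381 for Nfil3, -0.0496 to 0.0228 for Cry1, -0.0107 to 0.29 for Xbp1, -0.11 to 0.0925 for Ppara, -0.0893 to 0.21 for Irs2, -0.0105 to 0.14 for Lgr5 and -0.65 to 0.22 for Acta2. C1qb also reversed in edgeR (0.0125) and DESeq2 (0.0102). Cry1 reversed at 0.00214, 0.00921, 0.00969 and 0.0228 and Ppara at 0.0186, 0.0309, 0.0363 and 0.0925. The cause was not tested. No paired analysis was possible because the KO and WT groups share no mouse numbers. With 5 mice per genotype, genes near 0.5 FPKM rest on few reads.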

Other observations

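The major urinary protein genes, liver-secreted pheromone carriers under growth hormone control, were looked at after their values were seen. Of 22 measured Mup genes, 18 had a higher estimate in KO liver on HFD (median log2 fold change 0.93). Limma called none, with 9 higher at an unadjusted p under 0.05, while edgeR called 1 and DESeq2 7. Of all genes, 6.55% were higher at that unadjusted p, and DESeq2 called 1.82% of those it adjusted. Mup7 was 6242 FPKM in KO and 1985 FPKM in WT (log2 fold change 1.77, SE 0.42, limma adjusted p = 0.132), and Mup12 was 4602 FPKM in KO and 1061 FPKM in WT (log2 fold change 2.33, SE 0.53, limma adjusted p = 0.122). Every KO mouse lay above every WT mouse for 5 Mup genes, Mup7, Mup9, Mup10, Mup12 and Mup15, against 1.38% of all genes. The summed level of all 22 was 23899 to 41247 FPKM in KO and 16128 to 24031 FPKM in WT. Mup genes are near-identical copies, so the share of reads given to each is uncertain and the counts above are not of independent genes.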
